A study of Mus musculus with 8 samples.

Results

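The 43 genes described here make the proteins that copy DNA in S phase: the origin recognition and licensing factors, the Mcm2-7 helicase and its activators, the polymerases and primase, the sliding clamp and its loader, the single-strand binding protein, the enzymes that join Okazaki fragments, the enzymes that supply deoxynucleotides, and the G1/S regulators *Ccne1*, *Ccne2* and *E2f1*. They were listed by gene name for their role in replication, with earlier results of these data known, and no value of theirs entered the rule. Each gene was read by the probe set annotated to it with the highest mean over the 8 arrays, and all 43 had one, among 18193 genes and 45037 probe sets in all. RNA came from whole embryonic brain at E12.5 (E stands for embryonic day), dissected fresh from mice of the strain given as C57/BL6, and was hybridised to 3' expression arrays. The Cre+ group had 4 arrays of Nestin Cre+, Rest GTi/GTi embryos, and the control group had 4 arrays of Rest GTi/GTi littermates without Cre. Both groups carried 2 copies of GTi, an inverted gene trap in *Rest* that is turned into its disrupting orientation by Cre. *Rest* encodes the repressor REST. The Nestin promoter drives Cre in neural progenitors and, through them, their progeny, and other cells of the brain, such as microglia and vessels, are not its targets. Cre and the loss of REST came together in these embryos and cannot be told apart. The arrays were labelled as biological replicates, and whether each held 1 embryo or a pool was not stated.

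Replication starts when the origin recognition complex, Cdc6 and Cdt1 load the Mcm2-7 ring onto DNA in G1, a step called licensing. Cyclin E with its kinase, together with the kinase Cdc7, then lets Cdc45 and the GINS complex join the ring to form the active helicase, after which primase, the polymerases, the clamp PCNA and its loader RFC build the new strands and RPA covers the exposed single strands. Many of these genes are transcribed by E2F factors as cells pass from G1 into S. In the E12.5 brain they mark dividing cells, among them the progenitors of the ventricular zone, whereas neurons no longer divide. The comparison asked whether the transcripts of the replication machinery differed when Cre turned the gene trap in *Rest* in these progenitors and their progeny.

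Letters that E2F factors are known to bind stood in the promoters of some of these genes, and the stretches around the matches are given here for 6 members whose values follow. RefSeq promoter windows (GRCm38.p6, 250 bases before to 50 bases after each start, 300 bases in all) were at hand for 35 of the 43 members. The letters TTTCGCGC or TTTGGCGC, searched on both strands, stood in a window of 9 of the 35, or 25.7%, against 1.45% of the 14452 measured genes with a window and 0.813% of all 32851 windows. The 9 were *Cdt1*, *Lig1*, *Mcm3*, *Mcm5*, *Mcm6*, *Mcm7*, *Orc1*, *Pola1* and *Rfc3*. Capitals mark the matched letters in the lines that follow, which run 5′ to 3′ on the gene's own strand. The position is that of the first matched base from the start of its window, with a minus sign for bases before it. The 35 members had 43 windows, so this start need not be the outermost start of the gene.
Mcm3, chr1:20820263-20820285, minus strand, match at 38: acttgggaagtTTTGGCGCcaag
Mcm5, chr8:75109327-75109396, plus strand, first match at -153: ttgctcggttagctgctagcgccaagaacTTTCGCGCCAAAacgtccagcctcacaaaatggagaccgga
Mcm6, chr1:128359739-128359821, minus strand, first match at -110: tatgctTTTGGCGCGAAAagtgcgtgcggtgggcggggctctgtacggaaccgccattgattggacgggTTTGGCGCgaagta
Mcm7, chr5:138171849-138171878, minus strand, match at 16: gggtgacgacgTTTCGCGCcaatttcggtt
Cdt1, chr8:122568036-122568064, plus strand, match at 32: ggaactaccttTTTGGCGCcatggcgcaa
Rfc3, chr5:151651209-151651249, minus strand, match at -10: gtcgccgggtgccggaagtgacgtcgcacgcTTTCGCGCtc

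In *Mcm5* and *Mcm6* a match on one strand overlapped a match on the other, which makes the capital runs TTTCGCGCCAAA and TTTGGCGCGAAA, and *Mcm6* had a further match on its own strand. The letters CCAAT, searched in the same way, were in a window of 23 of the 35 members (65.7%, against 42.0% of measured genes and 37.4% of windows), whereas TATAAA was in 3 (8.57%, against 11.5% and 13.6%). The letters TTCAGCACC, the left part of the RE1 element that REST binds, were in 0 of the 35, with 0.491% of measured genes and 0.371% of windows holding them. A match of letters is a description of these windows and says nothing of binding, and the absence of a match says only that the letters are not in the window.

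The arrays differed among themselves before any gene of the replication machinery was considered. The brightest probe set of *Rest* had normalized intensities of 163.1, 216.7, 84.4 and 133.7 on Cre+ replicates 1 to 4 and of 170.1, 271.8, 211.0 and 198.3 on the control arrays, a log2 difference of -0.51 with overlapping groups (exact permutation p = 0.143, two-sided). A lower level of *Rest* was thus not called on these arrays (adjusted p = 0.758 in limma), which limits what the comparison can say. The mean of 16 genes of mesenchyme and meninges stood at 1.89 and 3.01 log2 units above the control mean on Cre+ replicates 1 and 2, whereas Cre+ replicates 3 and 4 were at -0.12 and -0.28. The Y-linked gene *Eif2s3y* was present on all 4 Cre+ arrays and on control replicates 1 and 4, while control replicates 2 and 3 carried *Xist*, so sex was uneven between the groups. In whole tissue, fewer cells of a kind and less RNA per cell cannot be told apart.

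No difference between Cre+ and control brains was detected for any of the 43 replication genes. No member passed an adjusted p of 0.05 in limma in either direction (0 of 43), when 0.225% of all genes did, 0.214% being higher and 0.011% lower in Cre+. At an unadjusted p of 0.05 the count was again 0 of 43 in limma, in the methods' t-test and in the t-test with unequal variances, against 6.97% of all genes in limma. In 0 of the 43 did the Cre+ arrays all lie above or all below the controls, which 4.64% of all genes did. The lowest adjusted p of a member was 0.743, for *Mcm3*. Of the 43 differences 28 were above 0 and 15 below, with a median of 0.02 on the log2 scale against 0.00 for all genes, and with a range from -0.22 for *Tyms* to 0.23 for *Mcm3*. This split followed the processing: 36 were above 0 without scaling of the arrays and 15 with scaling to a common median, so no direction is given for the group. The same held for the roles described next: of 9 role medians, 8 changed sign under at least 1 alternative, the exception being that of Mcm2-7.

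The arrays limited how large a difference could have gone unseen. Folds here are of normalized intensity plus 16, in the main setting. On this scale the 95% interval of all 43 genes included 1 and lay within 1.5-fold in both directions. For 32 genes it lay within 1.3-fold. The widest bounds on this scale were 1.39-fold higher for *Pola2* and 0.707-fold for *Pole*. The added constant draws the folds of dim genes toward 1, which bears most on *Tyms* and *Orc1*. Bounds under the alternatives are not given. Standard errors ran from 0.06 to 0.15 log2 units, with a median of 0.10 against 0.11 for all genes. The genes were well lit: 41 of 43 had a mean intensity above the all-gene median of 138.0, and only *Tyms* and *Orc1* were under 100. Differences inside these bounds could not be resolved with 4 arrays a group. A difference beyond 0.2 log2 units was found in 3 of the 43 (*Mcm3*, *Tyms* and *Pole*), against 19.5% of all genes and 3.38% of genes brighter than the median member.

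**Figure D1:**
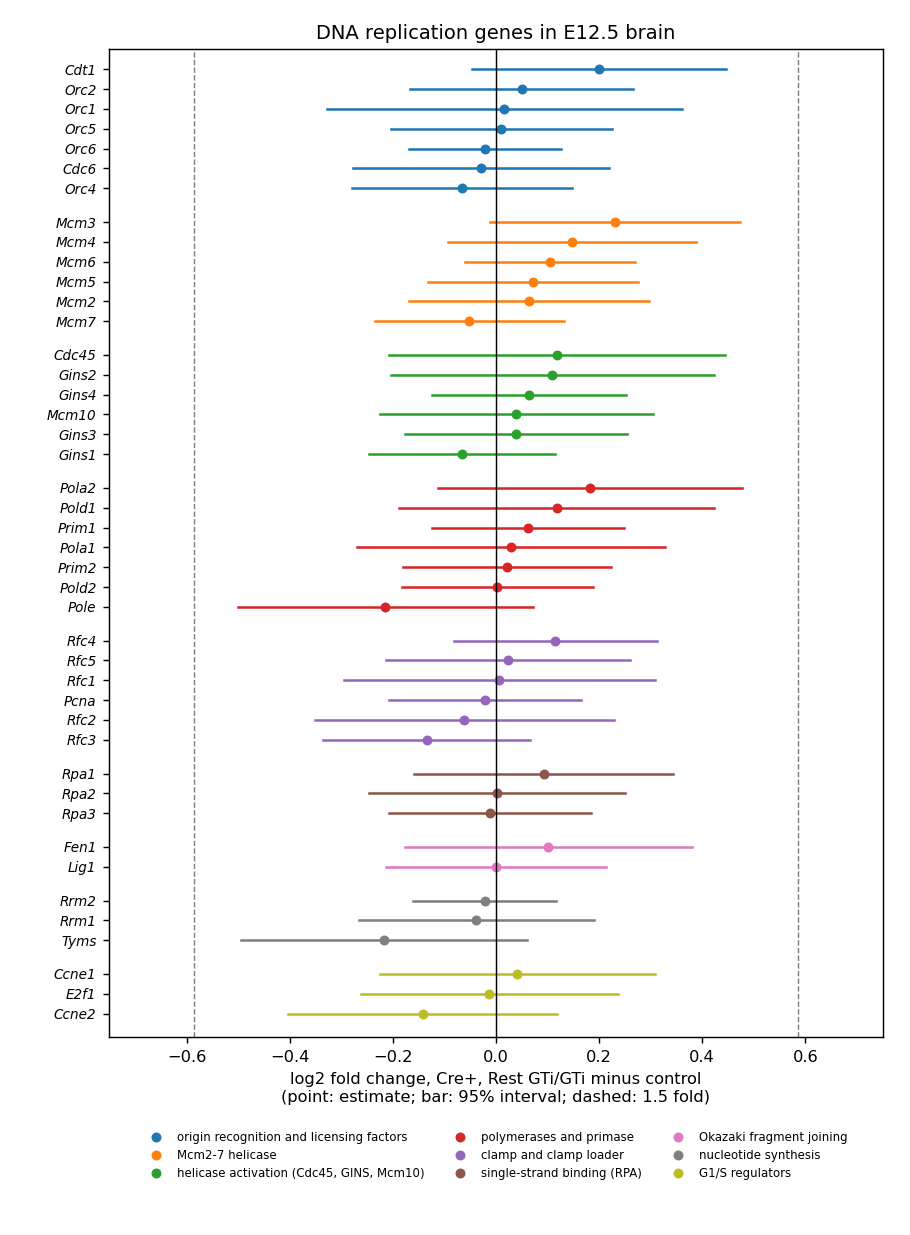
Log2 fold change (Cre+ minus control, horizontal axis) of each of the 43 DNA replication genes, grouped and coloured by role. Points are limma estimates on log2 (normalized intensity + 16) from 4 arrays a group, bars are 95% intervals, and dashed lines mark 1.5-fold. Every bar crosses 0 and none reaches a dashed line, with *Mcm3* at 0.23 and *Tyms* at -0.22 at the ends.

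The licensing factors comprised 5 subunits of the origin recognition complex, *Cdc6* and *Cdt1*, with a median difference of 0.01 on the log2 scale. *Cdt1*, which carries Mcm2-7 to the origin and is destroyed once S phase begins, had normalized intensities of 2258.6, 1756.0, 1612.4 and 1968.3 on Cre+ replicates 1 to 4 and of 1572.8, 1747.8, 1596.0 and 1644.3 on control replicates 1 to 4. Cre+ replicates 1, 2 and 4 were above every control, replicate 2 by a small margin, and replicate 3 was within the control range. The log2 difference was 0.20 ± 0.11 (SE, adjusted p = 0.786 in limma, exact permutation p = 0.114). *Cdc6*, the ATPase that works with Cdt1 in loading the ring, read 368.8, 296.7, 261.7 and 297.2 on Cre+ arrays against 309.7, 339.6, 283.0 and 311.5 on controls. Here the groups overlapped, with a Cre+ array at each end, and the log2 difference was -0.03 ± 0.11. The 5 origin recognition genes lay between -0.07 for *Orc4* and 0.05 for *Orc2*.

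The Mcm2-7 ring is the motor of the replicative helicase, and 5 of its 6 genes had a difference above 0, with a median of 0.09 on the log2 scale and none past either threshold. The median was 0.04 without Cre+ replicate 1, and with scaling to a common median it was 0.01 with 3 genes above 0 and 3 below. *Mcm3* had the lowest p of the 43 genes. Its normalized intensities were 1942.1, 1464.5, 1406.0 and 1587.8 on Cre+ replicates 1 to 4 and 1373.6, 1425.4, 1304.2 and 1302.1 on the controls. Cre+ replicates 1, 2 and 4 exceeded every control, while replicate 3 fell below control replicate 2. The log2 difference was 0.23 ± 0.11 (95% interval -0.01 to 0.47, unadjusted p = 0.0594 in limma, exact permutation p = 0.0571). The 4 other probe sets of *Mcm3* did not all follow the brightest, with log2 differences of 0.22, 0.15, 0.00 and -0.03.

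*Mcm4*, a subunit of the ring's catalytic core, read 2026.8, 1852.0, 1672.6 and 1807.8 on Cre+ arrays and 1611.9, 1610.2, 1467.7 and 1972.6 on controls. Control replicate 4 reached up among the Cre+ values, and the log2 difference was 0.15 ± 0.10. *Mcm6*, another core subunit, read 2605.2, 2396.7, 2251.9 and 2510.8 against 2177.4, 2322.4, 2192.3 and 2378.5. Again replicates 1, 2 and 4 of Cre+ were above all controls, with a log2 difference of 0.10 ± 0.07. *Mcm7*, which completes the core with *Mcm4* and *Mcm6*, was on the other side of 0, at 5376.0, 4835.5, 4436.0 and 5090.5 on Cre+ and 4842.3, 5368.8, 5241.2 and 4968.5 on control arrays (log2 difference -0.05 ± 0.08). The spread of the 4 Cre+ arrays covered the whole control range.

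*Mcm2* and *Mcm5* flank the gate through which DNA enters the ring. Intensities of *Mcm2* were 1556.5, 1284.3, 1169.0 and 1254.0 on Cre+ and 1180.6, 1375.2, 1188.1 and 1270.2 on control arrays. Those of *Mcm5* were 2804.3, 2389.4, 2157.9 and 2337.5 on Cre+ and 2201.8, 2346.1, 2255.6 and 2370.3 on control arrays. Both genes had their highest value on Cre+ replicate 1 and their lowest on Cre+ replicate 3, with log2 differences of 0.06 ± 0.10 and 0.07 ± 0.09.

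**Figure D2:**
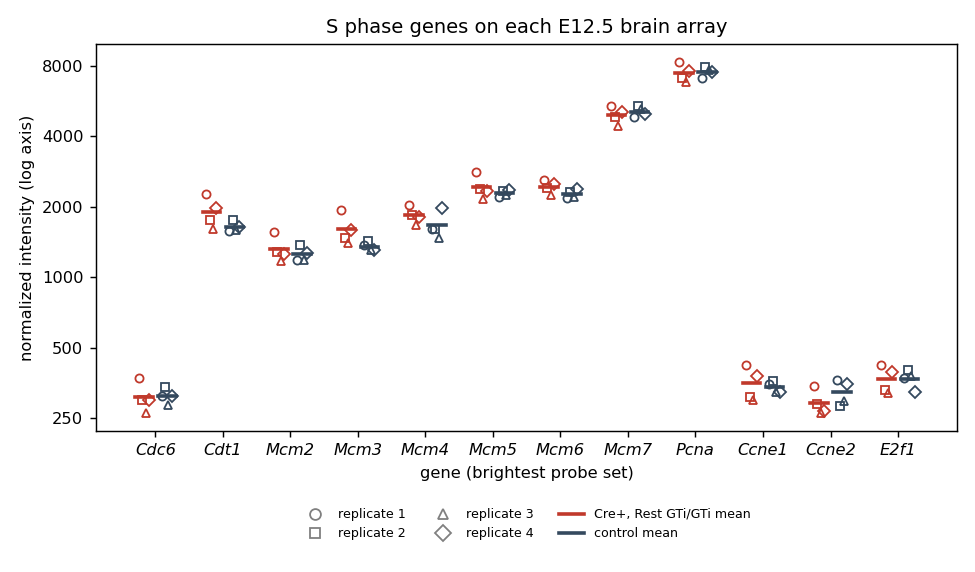
Normalized intensity (vertical log axis) of 12 S phase genes on each array. Open symbols are single arrays with the shape giving the replicate number, red for Cre+ and dark blue for control, and short bars are the means of 4 arrays. Cre+ replicate 1 (red circles) is the highest red symbol for every gene shown, and the red and blue symbols overlap for each of them.

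Helicase activation brings Cdc45 and the GINS complex to the ring with the help of Mcm10, and the 6 genes had a median difference of 0.05 on the log2 scale. *Cdc45* read 258.4, 216.4, 169.2 and 194.4 on Cre+ arrays against 151.4, 198.5, 204.5 and 209.5 on controls. The lowest of all 8 was control replicate 1, the groups overlapped, and the log2 difference was 0.12 ± 0.14. *Mcm10* and the GINS genes *Gins1* to *Gins4* lay between -0.07 (*Gins1*) and 0.11 (*Gins2*).

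Among the 7 polymerase and primase genes the median difference was 0.03 on the log2 scale, and 6 of them were above 0. With scaling to a common median 5 of the 7 were below 0 (median -0.03). *Pole*, the catalytic subunit of the leading-strand polymerase epsilon, had the lowest difference of the 7, with normalized intensities of 600.8, 486.7, 427.7 and 509.4 on Cre+ replicates 1 to 4 and of 555.5, 682.6, 506.7 and 611.5 on controls. Cre+ replicates 2 and 3 were below every control and replicates 1 and 4 were within the control range. Its log2 difference was -0.21 ± 0.13 (95% interval -0.50 to 0.07, adjusted p = 0.805 in limma, exact permutation p = 0.171). *Pold1*, the catalytic subunit of the lagging-strand polymerase delta, read 599.8, 502.8, 381.0 and 513.6 on Cre+ and 402.5, 492.9, 467.9 and 454.1 on control arrays. Cre+ held both the values above and the value below the control range, and the log2 difference was 0.12 ± 0.13.

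*Pola2*, a subunit of the polymerase alpha complex that starts each new strand with primase, read 472.8, 426.0, 339.3 and 392.8 on Cre+ arrays against 319.6, 433.1, 355.4 and 322.0 on controls, a log2 difference of 0.18 ± 0.13. The groups overlapped, and 2 dim further probe sets of *Pola2* had log2 differences of -0.27 and -0.13. *Pola1*, the catalytic subunit of that complex, is given because it is the X-linked member, chosen after its values were seen, and it read 637.9, 619.8, 444.3 and 626.3 on Cre+ arrays. Its control values were 640.5 and 584.2 on replicates 1 and 4, which had the Y-linked signal, and 527.1 and 515.0 on replicates 2 and 3, which had *Xist*. The log2 difference of *Pola1* between Cre+ and control was 0.03 ± 0.13. The other 3 genes of this role, *Prim1*, *Prim2* and *Pold2*, lay between 0.00 and 0.06.

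PCNA is the ring that holds polymerases on DNA, and RFC is the complex that loads it. *Pcna* read 8356.4, 7081.3, 6862.6 and 7601.2 on Cre+ arrays and 7135.0, 7904.1, 7681.3 and 7557.4 on controls, a log2 difference of -0.02 ± 0.08 with a 95% interval for the fold of 0.867 to 1.12. Cre+ arrays were the highest and the lowest of the 8. *Rfc3*, a small subunit of the loader, read 859.5, 754.8, 667.8 and 724.6 on Cre+ against 851.1, 804.2, 784.2 and 855.6 on controls. Cre+ replicates 2, 3 and 4 were below every control and replicate 1 was above them all, with a log2 difference of -0.13 ± 0.09 (adjusted p = 0.828 in limma, exact permutation p = 0.171). *Rfc4*, another small subunit, went the other way, at 1431.8, 1216.4, 1121.6 and 1314.2 against 1157.7, 1218.0, 1125.2 and 1173.0, a log2 difference of 0.11 ± 0.09. Its Cre+ arrays again reached past the controls at both ends, and *Rfc1*, *Rfc2* and *Rfc5* lay between -0.06 and 0.02.

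*Rpa1*, the large subunit of the single-strand binding protein RPA, read 2717.4, 2316.8, 2037.9 and 2033.2 on Cre+ arrays and 1914.2, 2305.5, 2164.8 and 2109.5 on controls. The groups overlapped, with a log2 difference of 0.09 ± 0.11, and *Rpa2* and *Rpa3* were at 0.00 and -0.01. *Fen1*, the nuclease that trims the flaps of Okazaki fragments, read 1066.1, 747.0, 763.7 and 902.2 on Cre+ and 727.0, 873.0, 809.3 and 802.6 on control arrays. Its log2 difference was 0.10 ± 0.12, and that of *Lig1*, the ligase that seals the fragments, was 0.00 ± 0.09.

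All 3 genes of deoxynucleotide synthesis had a difference below 0, with a median of -0.04 on the log2 scale (0.00 without scaling, with 2 of the 3 above 0). *Tyms*, thymidylate synthase, read 70.6, 48.9, 49.5 and 64.7 on Cre+ arrays and 64.2, 78.3, 61.5 and 76.6 on controls. Cre+ replicates 2 and 3 were below every control, and the log2 difference of -0.22 ± 0.12 was the lowest of the 43 (adjusted p = 0.794 in limma, exact permutation p = 0.171). This gene was read only from dim probe sets, because a probe set annotated jointly to *Tyms* and its pseudogene was not used. The large and small subunits of ribonucleotide reductase, *Rrm1* and *Rrm2*, were at -0.04 ± 0.10 and -0.02 ± 0.06.

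The G1/S regulators had a median difference of -0.01 on the log2 scale. *E2f1*, an activator of the genes of S phase, read 421.5, 327.8, 320.6 and 391.3 on Cre+ and 369.2, 400.3, 376.5 and 323.6 on control arrays (log2 difference -0.01 ± 0.11). *Ccne1*, a cyclin E gene, read 422.3, 307.4, 298.1 and 378.7 against 350.7, 359.0, 321.2 and 321.8 (0.04 ± 0.12). Its paralog *Ccne2* read 342.7, 286.6, 262.7 and 268.0 against 362.5, 281.3, 295.1 and 347.9 (-0.14 ± 0.11). The groups overlapped for all 3 genes, and Cre+ replicate 1 was the highest of the Cre+ arrays for each.

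The replication genes shared a pattern over the arrays that did not separate the genotypes, with its highest and its lowest mean both on Cre+ arrays. Their mean relative to the controls, on the log2 scale, was 0.22, -0.04, -0.13 and 0.04 on Cre+ replicates 1 to 4, and -0.06, 0.05, 0.00 and 0.01 on control replicates 1 to 4. Cre+ replicate 1 was the highest of the 8 arrays for 30 of the 43 genes (16.8% of all genes were highest there) and the lowest for 0. At the other end, Cre+ replicate 3 was the lowest for 19 genes (11.9% of all genes) and the highest for 0. Replicate 1 lay above every control for 33 members (25.6% of all genes) and replicate 3 below every control for 23 (20.5% of all genes). The SD of the mean over the 4 arrays was 0.15 in Cre+ and 0.05 in controls. Gene by gene, the SD was larger in Cre+ than in control for 36 of the 43, a larger share than the 62.1% of genes with a mean intensity over 100. The difference between genotypes exceeded the SD of the Cre+ arrays in 5 of the 43. Without Cre+ replicate 1 the median of the 43 differences was -0.03, with 16 above 0 and 27 below, and no gene passed an adjusted p of 0.05.

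**Figure D3:**
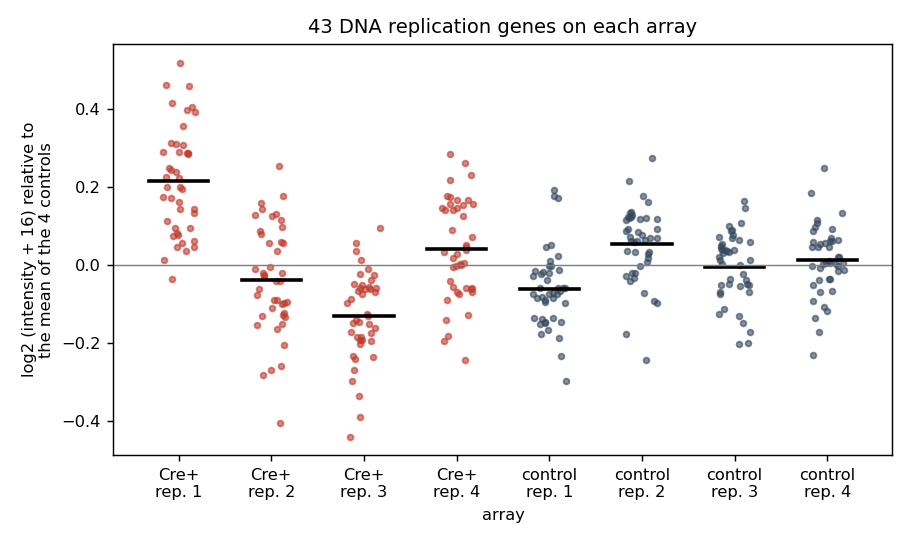
Each of the 43 DNA replication genes on each array, as log2 (normalized intensity + 16) relative to that gene's mean over the 4 controls (vertical axis). Points are genes, red for Cre+ and dark blue for control, and black bars are the means of the 43 genes. The mean is 0.22 on Cre+ replicate 1 and -0.13 on Cre+ replicate 3, with the 4 controls between -0.06 and 0.05.

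Other lists of genes are given beside this pattern. The 27 measured genes of mitosis had array means of 0.20, -0.06, -0.24 and -0.03 on Cre+ and -0.08, 0.07, 0.05 and -0.04 on control arrays, on the log2 scale. The 16 neuronal genes, all measured, were at -0.28, 0.05, 0.24 and 0.10 on Cre+ and 0.14, -0.08, -0.04 and -0.02 on control arrays. Cre+ replicate 1, highest for replication genes, was lowest for neuronal genes, and Cre+ replicate 3, lowest for replication genes, was highest for neuronal genes. The same held among the controls, where replicate 1 was lowest for replication and highest for neuronal genes, and replicate 2 the reverse. Summed intensities of the neuronal list ran from 51590.6 to 71203.7 on Cre+ arrays and from 59171.0 to 67000.2 on controls, and 0 of its 16 genes were near background. The 17 genes of apical progenitors, which are the dividing cells of the ventricular zone, were at 0.09, -0.09, -0.07 and -0.03 on Cre+ arrays. On control arrays they were at -0.01, 0.05, -0.05 and 0.01.

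Genes of hindbrain and spinal cord, a list of *Hox* genes with 11 of 13 measured, were lowest on Cre+ replicate 1 and highest on Cre+ replicate 3. They were at -0.54, 0.62, 1.99 and 1.21 on Cre+ replicates 1 to 4. On control replicates 1 to 4 they were at 0.73, -0.29, -0.37 and -0.07. Their summed intensities ran from 77.9 to 2022.1 on Cre+ arrays and from 120.4 to 679.4 on controls. *Hoxa4*, *Hoxb1* and *Hoxb5* were near background on the mean of the 8 arrays. Others were near it on single arrays, among them *Hoxb3*, at 1.8 on Cre+ replicate 1 and 9.3 on control replicate 3. *Hoxc4* read 0.9, 0.9, 2.4 and 0.7 on control replicates 1 to 4. The low array means of this list therefore rest partly on values near background. The 7 erythroid genes were at 0.66, -0.02, -0.32 and -0.05 on Cre+ replicates 1 to 4, and at -0.22, -0.06, 0.12 and 0.16 on control replicates 1 to 4. Of these *Hba-a1* was near background. The 10 endothelial genes, all measured, were at 0.67, 0.59, 0.07 and 0.05 on Cre+ replicates 1 to 4. On control replicates 1 to 4 they were at 0.03, 0.03, -0.145 and 0.08. All 10 had a difference above 0, with a median of 0.39 on the log2 scale, and 0 passed an adjusted p of 0.05 in limma. The part of these lists in the array-to-array spread of the replication genes was not tested.

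**Figure D4:**
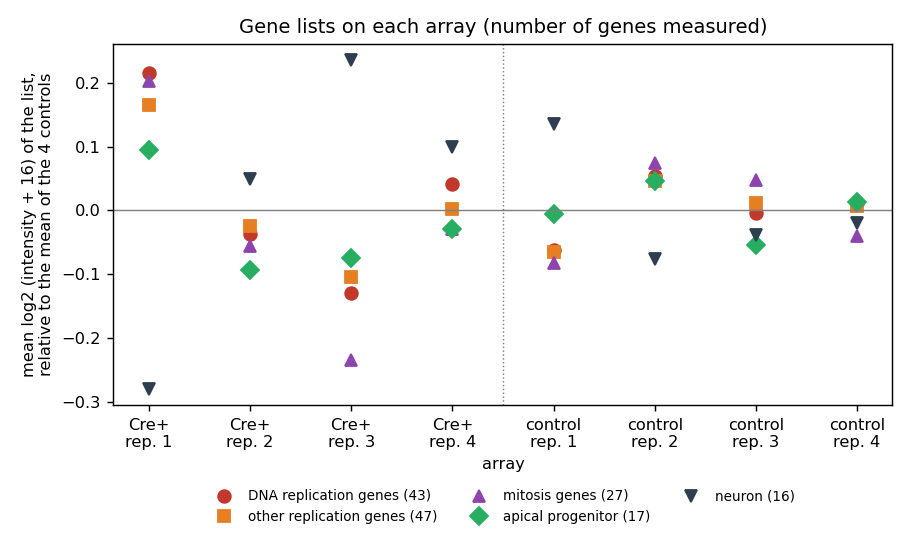
Mean of 5 gene lists on each array, as log2 (normalized intensity + 16) relative to the mean of the 4 controls (vertical axis). Symbols are lists, with the number of genes measured in the key. Replication and mitosis genes are high and neuronal genes low (-0.28) on Cre+ replicate 1, and the order is turned on Cre+ replicate 3, where neuronal genes are at 0.24.

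The probe sets beyond the brightest gave the same count. Members had 96 probe sets in all, with more than 1 for 32 genes and 1 for 11 genes. Of the 96, 0 passed an adjusted p of 0.05 and 0 an unadjusted p of 0.05 in limma. The 53 that were not the brightest of their gene had a median log2 difference of 0.00, and the lowest adjusted p among all 96 was 0.732, for a dim probe set of *Mcm10*. The 9 genes with the E2F letters in their promoters had log2 differences from -0.13 (*Rfc3*) to 0.23 (*Mcm3*) with a median of 0.03, and the 26 genes with a window but without the letters ran from -0.22 to 0.18 with a median of 0.02.

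Of 50 other replication genes (among them kinases, checkpoint factors, accessory polymerase subunits and histone chaperones) 47 were measured, and 0 passed an adjusted p of 0.05 in limma. At an unadjusted p of 0.05 limma gave 0, and each of the t-tests gave 1. Their median difference was 0.00 on the log2 scale, with 24 above 0 and 23 below. The groups did not overlap in 1 of the 47, where 4.64% of all genes did not, and the gap was narrow. This was *Rrm2b*, a small subunit of ribonucleotide reductase that serves cells outside S phase. It read 322.7, 334.8, 323.5 and 340.2 on Cre+ against 366.0, 341.0, 400.8 and 373.2 on controls, a log2 difference of -0.16 ± 0.07 (adjusted p = 0.735 in limma, exact permutation p = 0.0286, the smallest that 4 against 4 arrays can give). *Samhd1*, which degrades deoxynucleotides, and *Recql4*, a helicase, had log2 differences of 0.27 ± 0.13 and 0.13 ± 0.09.

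Of the 26 genes of the E2F-RB and cyclin group, 1 passed an adjusted p of 0.05. This was *Cdkn1a*, the gene of p21, which inhibits cyclin-dependent kinases and binds PCNA. It read 446.4, 439.1, 383.5 and 356.1 on Cre+ arrays and 175.9, 145.2, 168.3 and 168.2 on controls, so that every Cre+ array was above every control. The log2 difference was 1.22 ± 0.10, or 2.34-fold (95% interval 2.01 to 2.72, adjusted p = 0.00312 in limma, exact permutation p = 0.0286). Its adjusted p was over 0.05 in 4 of the 22 alternatives, at 0.0981 with unequal variances, 0.2 without scaling, 0.123 with the replicate number as a block and 0.0669 with Cre+ replicates 3 and 4 alone, and from 0.000399 to 0.0456 in the others. The fold in those 4 was 2.34, 2.45, 2.34 and 2.14. The median of the group was -0.02. The Cre+ and control arrays did not overlap in 2 of the 26, *Cdkn1a* and *E2f3*, where 4.64% of all genes did not. *E2f3*, an activating E2F, was chosen here after its values were seen. Its gap was narrow, with the lowest Cre+ array at 656.2 and the highest control at 655.5, while Cre+ replicate 1 read 956.1. The log2 difference of *E2f3* was 0.25 ± 0.13 (adjusted p = 0.771 in limma).

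*Cdkn1a* was higher on all 4 Cre+ arrays, whereas the replication genes were above the controls on Cre+ replicate 1 and below them on replicate 3. The mean of 15 genes of microglia and macrophages was also higher on all 4 Cre+ arrays, at 1.16, 1.16, 1.00 and 0.92 on the log2 scale. Of the 15, 9 passed an adjusted p of 0.05 in limma, against 0.225% of all genes. In 12 of them every Cre+ array was above every control, where 4.64% of all genes lay apart in either direction. *Spi1* and *Trem2* had log2 differences of 0.06 and -0.23, *Trem2* being near background. Summed intensities of the list ran from 2281.7 to 2550.4 on Cre+ and from 844.1 to 977.3 on control arrays. The part of these genes in the *Cdkn1a* values was not tested. Of the 27 measured mitosis genes 0 passed an adjusted p of 0.05 and 0 an unadjusted p of 0.05 in limma, with a median of -0.01 and 19 below 0. The lowest p among them belonged to *Ncapg*, a condensin subunit, at -0.23 ± 0.13, *Kif11*, the spindle motor, at -0.18 ± 0.11, and *Cenpa*, the histone of centromeres, at -0.13 ± 0.10 on the log2 scale.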

How the data were processed

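Total RNA of E12.5 mouse brain was hybridised to 8 arrays, 4 a group. The study's notes name RMA, but the intensities deposited by the authors were on a linear scale with array medians from 40.9 to 68.0. They were therefore quantile-normalized, 16 was added, and log2 was taken, so every fold of the main setting is of intensity plus 16. Groups were compared for 45037 probe sets with limma 3.58.1 (R 4.3.3, lmFit and eBayes) and Benjamini-Hochberg adjustment over all of them; 95% intervals use its moderated error. Each gene was read by its brightest probe set annotated to it alone (34945 probe sets named 1 gene, 932 several, 9160 none). Exact permutation tests were two-sided. The number of arrays limits the precision. Members and lists were chosen with earlier results of these data known. Values on every array are given for members called, the 12 with the lowest p, the largest difference in each role, and 12 textbook S phase genes; outside the members, for called genes, with the lowest 3 p a list. Alternatives were other tests, scalings, added constants (1, 50), a filter on dim probe sets (under 50), other probe sets, a replicate block, *Eif2s3y* as a covariate, and leaving out arrays.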

Additional observations from a re-analysis of the deposited data

Results flagged for a closer look

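A single array far from the others of its group was looked for in 112 groups of 4 arrays, over members and lists, and 3 were found. By chance about 1 in 20 such groups would be flagged, which is a larger share than 3 of 112. The groups also overlap, since members enter the list means. The 3 are therefore given as a description only. *Gins2* read 597.2 on Cre+ replicate 1, far above the other Cre+ arrays (gap of 0.838 of the group's range). *Pola1* read 444.3 on Cre+ replicate 3, far below the other Cre+ arrays (0.907 of the range). The mean of the helicase activation genes was -0.13 on control replicate 1, relative to the control mean on the log2 scale, far below the other controls (0.909 of the range).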

How the results depend on the processing

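Under all 22 alternatives 0 of the 43 replication genes, 0 of the other replication genes and 0 of the mitosis genes passed an adjusted p of 0.05; the lowest adjusted p of a member was 0.565 (*Cdt1* without Cre+ replicate 3), and at most 3 members passed an unadjusted p of 0.05. The median of the members was -0.03 without Cre+ replicate 1, -0.04 with Cre+ replicates 3 and 4 alone, -0.03 with a common median and 0.08 without scaling, and it ran from -0.03 to 0.09 when single arrays were left out. Without scaling the median of all genes itself was 0.05 and with a common median -0.04. Of 462 values of the 21 members given by array under the stated rule, which leaves out *Pola1*, 27 had the other sign. The count of all genes called, 41, was 14 with the methods' t-test, 0 with unequal variances, 2 without scaling, 26 with an added constant of 1, 14 with *Eif2s3y* as a covariate, 0 with Cre+ replicates 3 and 4 alone and 21 to 31 when single arrays were left out (lowest without Cre+ replicate 2). *Cdkn1a*, the 1 gene called in the E2F-RB and cyclin group, left 0 called with unequal variances, without scaling and with Cre+ replicates 3 and 4 alone. With the replicate number as a block 0 genes were called, in that group and among all. Arrays that share a number were not paired by the labels, and their deviations correlated at -0.13, -0.039, 0.007 and -0.114. The mean of all probe sets gave 0.01 for *Mcm6* and -0.07 for *Pola2*. That mean takes in dim probe sets, with log2 differences of -0.17 for *Mcm6* and of -0.27 and -0.13 for *Pola2*. The other bright probe set of *Mcm6* was at 0.08. The cause of the other shifts was not tested. *Tyms* and *Orc1* were the 2 members with a mean intensity under 100, and the median SD of members was 0.17 on Cre+ and 0.10 on control arrays.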
